A study of Mus musculus with 12 samples.

Results

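Clone F5 is a derivative of the NIH3T3 mouse fibroblast line that is labelled as a knockout of Aebp1, and its RNA was compared with that of the parental NIH3T3 line across all expressed genes. F5 was sampled at passages 7, 8 and 9 and the unedited parental line at passages 6, 7 and 8, so the comparison uses 6 of the 12 libraries of the study. The other 6 libraries come from the knockout clones G5 and H7 at passages 7, 8 and 9 and are used here where F5 is set against them. The medium of every line was DMEM/F12 with added fetal bovine serum, and ribosome-depleted total RNA was sequenced. Each clone is a single clonal line and the parental line is an uncloned population, so that cloning and the knockout cannot be told apart in F5 against parental. The labels do not name the edited site. They do not say either whether the passages of a line were cultured apart, so the p-values reflect the variation among these particular libraries, which may be technical.

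AEBP1, also known as ACLP, is secreted by fibroblasts and smooth muscle cells and binds fibrillar collagen through a discoidin domain. Its carboxypeptidase-like domain is thought to lack enzymatic activity. In people, loss of the protein causes a form of Ehlers-Danlos syndrome with fragile connective tissue, and in mice the protein is needed for wound closure.

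The F5 libraries held 25779797 to 31329735 counts and the parental libraries 22441810 to 24965904, with 18333 to 18936 genes detected in each of these 6. The parental library of passage 7 stood apart from the other parental libraries on a plot of distances between libraries, with a second coordinate of 2.26, where passages 6 and 8 had 1.26 and 1.41. It had the highest level of Igf2, Egfr, Col12a1, Dcn and Col3a1 among the 6. Levels are in CPM, the counts of a gene scaled to a common library size by TMM, fold changes are log2 values of F5 over parental with their standard error (SE), and a gene was called where its adjusted p was under 0.05 in edgeR's quasi-likelihood test.

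Aebp1 itself (ENSMUSG00000020473, chromosome 11, 5861947 to 5872088, plus strand) had 214, 175 and 190 CPM in F5 at passages 7, 8 and 9, against 613, 467 and 579 CPM in the parental line at passages 6, 7 and 8. The groups did not overlap, and F5 kept 34.9% of the parental mean (log2 fold change -1.52, SE 0.12, adjusted p = 3.6e-05). The transcript was thus reduced and not absent in F5, and gene-level counts do not show whether the remaining transcript is edited. Among the related carboxypeptidase genes tested, Cpxm1, a close paralogue, also fell (log2 fold change -1.04, SE 0.31, adjusted p = 0.0483), with levels under 1 CPM in every F5 and parental library. Its call was lost without any 1 of 11 of the 12 libraries, for instance with an adjusted p of 0.13 without F5 at passage 7 and of 0.12 without the parental library of passage 8. Cpe and Cpd, enzymes that trim peptides in the secretory pathway, did not pass the test at -0.37 (adjusted p = 0.344) and -0.14 (adjusted p = 0.124).

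Across the 14704 genes tested, 1012 (6.88%) were higher and 1084 (7.37%) lower in F5 than in the parental line. Most differences were small: the median size of a called log2 fold change was 0.59, 849 calls lay under 0.5 and 575 reached 1, of which 260 (1.77%) were higher and 315 (2.14%) lower. Protein-coding genes made up 906 of the higher and 978 of the lower calls. In all but 3 of the higher and 17 of the lower calls the F5 libraries did not overlap the parental ones, beside 15.0% and 15.1% of all genes tested that lay wholly above and wholly below. The number of calls depended on single libraries. The lower count was 547, 705 and 568 without F5 at passage 7, 8 or 9, and the higher count 635 without F5 at passage 8. A fit of the 6 libraries alone called 401 higher and 366 lower, and a block for the order of passages, a pairing that the labels do not give, called 2024 higher and 2202 lower.

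The largest folds were taken among called genes that averaged at least 1 CPM and had no overlap of F5 and parental libraries. The lack of overlap in these genes was thus set by the rule. Mbnl3, a muscleblind RNA-binding protein of the X chromosome, had 11.1, 8.10 and 9.72 CPM in F5 and 0.626, 0.474 and 0.747 CPM in the parental line. Hecw1, a ubiquitin ligase described in neurons, had 7.70, 12.5 and 7.41 CPM in F5 and 0.403, 0.710 and 0.439 CPM in the parental line. Both were higher in every F5 library, with log2 fold changes of 3.96 (SE 0.21, adjusted p = 1.86e-05) and 4.13 (SE 0.32, adjusted p = 3.6e-05). Both were also higher than in clone H7, with fitted log2 differences of 10.95 and 9.02. Differences of this size place H7 under 0.0386 CPM, the level of 3 counts over its libraries, so their size is not exact. The differences of both genes from clone G5 were -0.33 and 0.22 (adjusted p = 1.0 for each).

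Nlrp4f, a member of the NOD-like receptor family, had 11, 7.47 and 10.9 CPM in F5 and 1.03, 1.07 and 0.923 CPM in the parental line (log2 fold change 3.27, SE 0.19, adjusted p = 6.12e-06). Cacnb2, a subunit of voltage-gated calcium channels, had 8.20, 7.31 and 7.68 CPM in F5 and 1.12, 0.316 and 0.527 CPM in the parental line, a log2 fold change of 3.57 that was 4.19 without the parental library of passage 6. Cdsn, which encodes an adhesion protein of the skin barrier, had 86.2, 188 and 74.8 CPM in F5 and 11.8, 17.4 and 7.20 CPM in the parental line. In both lines the middle passage was the highest for Cdsn (log2 fold change 3.26, SE 0.49, adjusted p = 0.00165). Apob, the apolipoprotein of liver and gut lipoproteins, rose by 4.32 (SE 0.45, adjusted p = 0.000235), and Car6, a secreted carbonic anhydrase, by 3.52 (SE 0.54, adjusted p = 0.00186). Aire, a regulator of self-antigens in the thymus, rose by 6.05 (SE 0.85, adjusted p = 0.00119) over a parental level of at most 0.0447 CPM. Sspo rose by 5.55, a value that was 4.77 without F5 at passage 8 and 6.42 without the parental library of passage 7. Taf7l, a testis form of a general transcription factor subunit, rose by 3.70, which was 3.09 without F5 at passage 8 and 4.51 without the parental library of passage 6. Atp2a3, a calcium pump, rose by 3.35 and by 4.16 without the same parental library.

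**Figure D1:**
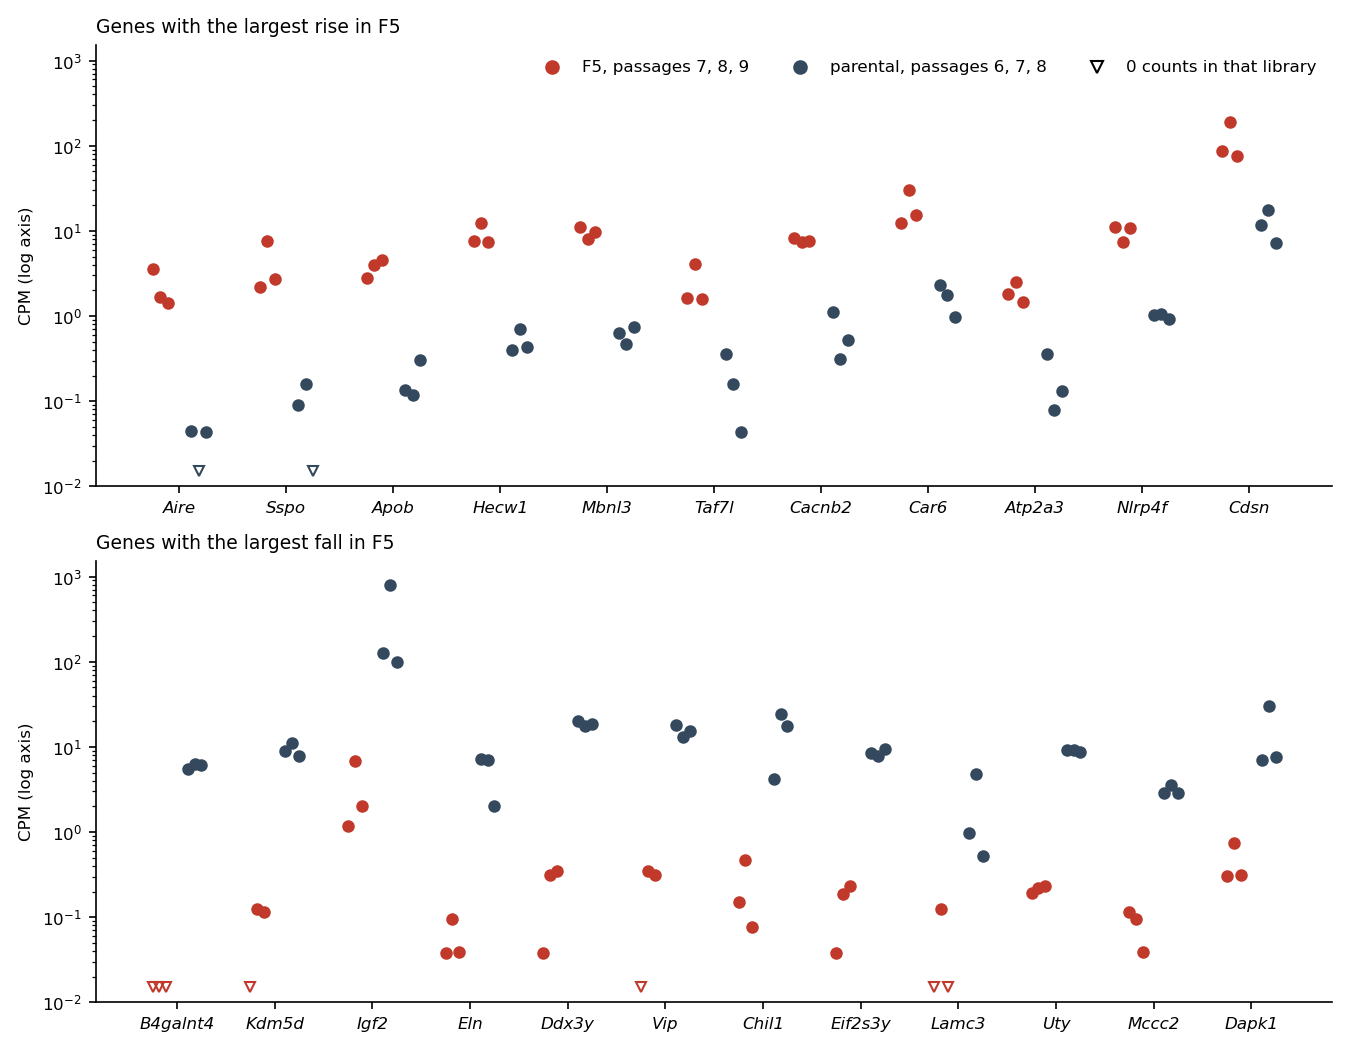
CPM on a log axis of genes among the 12 with the largest rise (top) and of the 12 with the largest fall (bottom) in F5, with 1 point per library, F5 left of parental for each gene. Open triangles near the bottom edge mark libraries with 0 counts and have no height of their own. F5 and parental points do not overlap for any of these genes, which the rule for naming them required, and the parental library of passage 7 is the highest of all points for Igf2, at 796 CPM.

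Among the large falls were all 4 tested members of the Y-linked list, and these were the 4 called lower of 7 tested genes on the Y chromosome. Ddx3y, an RNA helicase, had 0.0383, 0.314 and 0.347 CPM in F5 and 20.2, 17.5 and 18.8 CPM in the parental line. Uty, a histone demethylase homologue, had 0.192, 0.220 and 0.231 CPM in F5 and 9.12, 9.12 and 8.79 CPM in the parental line (log2 fold change -5.36, SE 0.37, adjusted p = 2.09e-05). Kdm5d had a log2 fold change of -6.73 (adjusted p = 0.000304) and Eif2s3y of -5.76 (adjusted p = 0.000244). In TPM, a level corrected for transcript length, the list summed to 0.219 to 0.960 in F5 and 25.3 to 28.0 in parental libraries. It summed to 0.0833 to 0.264 in G5 and 0.0315 to 0.207 in H7, so the low level was not particular to F5. In bulk RNA, fewer cells with a transcript and less of it per cell cannot be told apart.

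Elastin (Eln), the core protein of elastic fibres, had 0.0383, 0.0941 and 0.0386 CPM in F5 and 7.25, 7.07 and 2.02 CPM in the parental line (log2 fold change -6.41, SE 0.62, adjusted p = 0.000141). Vip, a neuropeptide gene, had 0, 0.345 and 0.309 CPM in F5 and 18.2, 13.2 and 15.5 CPM in the parental line (log2 fold change -6.09, SE 0.56, adjusted p = 0.000105). Mccc2, a subunit of a mitochondrial leucine-degrading enzyme, was between 0.0386 and 0.115 CPM in F5 and between 2.86 and 3.59 CPM in the parental line (log2 fold change -5.15, SE 0.40, adjusted p = 0.00012). Chil1, a chitinase-like lectin, fell by 5.94 (SE 0.80, adjusted p = 0.00092) and by 7.00 without F5 at passage 8. Dapk1, a death-associated kinase, fell by 4.99, with values of -3.93 without the parental library of passage 7 and -5.59 without F5 at passage 8. Lamc3, a laminin chain, fell by 5.36, with values of -3.87 and -8.74 without the same libraries, and F5 at passage 8 held all of its F5 counts.

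By absolute change in CPM, the 6 largest rises were those of Eef1a1, Neat1, Ahnak, Eef2, Pabpc1 and Pgk1. Neat1, a nuclear non-coding RNA, lost its call without F5 at passage 8 or 9 or the parental library of passage 6 or 7, with adjusted p between 0.0667 and 0.0901. Ahnak lost its call without F5 at passage 7 or 9 or the parental library of passage 7 or 8, and Eef2 without F5 at passage 8 or the parental library of passage 8. Pabpc1, a poly(A)-binding protein, lost it without any F5 library, H7 at passage 8 or the parental library of passage 7 or 8. Eef1a1, the elongation factor that delivers tRNA to the ribosome, had 6559, 6885 and 6517 CPM in F5 and 5451, 5602 and 5370 CPM in the parental line (log2 fold change 0.28, SE 0.06, adjusted p = 0.01). Pgk1, a glycolytic enzyme, had 869, 750 and 839 CPM in F5 and 454, 270 and 446 CPM in the parental line (log2 fold change 1.07, SE 0.18, adjusted p = 0.00326). Among the 6 largest falls were 4 collagen chains. Col1a1, a chain of type I collagen, had 5861, 4043 and 5442 CPM in F5 and 7204, 7791 and 6974 CPM in the parental line. Its log2 fold change of -0.52 (SE 0.14, adjusted p = 0.0314) lost its call without F5 at passage 8, where it was -0.37 (adjusted p = 0.0865), without F5 at passage 9 (adjusted p = 0.0675), and without each parental library, with adjusted p between 0.0525 and 0.0672. Col3a1 had 253, 262 and 271 CPM in F5 and 553, 1181 and 495 CPM in the parental line (log2 fold change -1.50, SE 0.27, adjusted p = 0.00471), with the parental library of passage 7 far above the others. The type VI collagen chains Col6a1 and Col6a2 both fell by 0.77 (SE 0.10, adjusted p = 0.000698 and 0.000648).

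The gene list with the largest share of higher calls pooled targets of ATF4 with genes of the unfolded protein response. These groups were not counted apart, so the share does not speak for either alone. ATF4 is a transcription factor whose translation increases when cells lack amino acids or accumulate unfolded proteins, and its targets import and make amino acids and charge tRNAs. Of 56 members tested, 35 were higher (62.5%, beside 6.88% of all genes) and 2 lower, and the median log2 fold change was 0.78, beside -0.01 over all genes tested. Trib3, a pseudokinase induced by ATF4, had 67.6, 77.9 and 56.7 CPM in F5 and 19.9, 12.2 and 12.4 CPM in the parental line (log2 fold change 2.19, SE 0.22, adjusted p = 0.000183). Ddit4, an inhibitor of mTORC1 signalling, had 78.6, 65.0 and 71.4 CPM in F5 and 21.4, 20.2 and 27.8 CPM in the parental line (log2 fold change 1.63, SE 0.13, adjusted p = 4.05e-05). Both genes were higher in each F5 library than in any parental library. Atf4 itself rose by 0.78 (SE 0.08, adjusted p = 0.000235) and the cystine transporter Slc7a11 by 2.16 (SE 0.32, adjusted p = 0.00149). The 2 lower members, Dnajb9 and Dnajc3, encode co-chaperones of the endoplasmic reticulum and had log2 fold changes of -0.43 (adjusted p = 0.013) and -0.42 (adjusted p = 0.022). Neither was called without F5 at passage 7, 1 was without F5 at passage 8 or 9 or the parental library of passage 8, and 7 members were called lower without the parental library of passage 7. Against G5, the median over the 56 was 0.00. The medians of G5 and H7 against the parental line were 0.77 and 0.63.

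The promoters of the risen members were searched for TGATGCAA, an 8-letter form of the element bound by ATF4 with C/EBP partners, chosen after these counts were known. Either strand was read in the RefSeq promoters of GRCm38.p6, from 250 bases before to 50 bases after each start. Of the 29 risen members with a promoter in the table, 8 (27.6%) held it, and of the 16 other tested members matched none did. Of all 27025 genes in the table, 279 (1.03%) did. The list was drawn up from targets of ATF4, so these shares cannot show that ATF4 acted in F5. Shown are 60 bases around the match for 5 of the 8, in the direction of the gene, with the element in capitals, to show its orientation and its letters. In 4 of them it lies on the opposite strand, as TTGCATCA, and in Slc7a11 it occurs in both orientations.

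Chac1, chr2:119351023-119351082, plus strand: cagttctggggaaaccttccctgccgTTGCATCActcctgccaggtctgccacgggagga

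Slc7a11, chr3:50443637-50443696, minus strand: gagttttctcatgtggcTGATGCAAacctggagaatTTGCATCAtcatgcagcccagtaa

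Vldlr, chr19:27216794-27216853, plus strand: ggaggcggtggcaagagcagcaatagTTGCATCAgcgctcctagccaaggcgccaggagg

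Nupr1, chr7:126625547-126625606, minus strand: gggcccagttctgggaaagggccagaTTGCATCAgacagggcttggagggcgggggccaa

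Herpud1, chr8:94386291-94386350, plus strand: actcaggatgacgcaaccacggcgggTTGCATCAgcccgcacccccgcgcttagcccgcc

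The element started 193, 66, 200, 110 and 112 bases before the gene start in Chac1, Slc7a11, Vldlr, Nupr1 and Herpud1. Chac1, which degrades glutathione, had 40.4, 28.9 and 35.8 CPM in F5 and 12.7, 8.33 and 11.2 CPM in the parental line (log2 fold change 1.71, SE 0.19, adjusted p = 0.000304). Vldlr, a lipoprotein receptor, had 19.2, 23.1 and 17.4 CPM in F5 and 5.23, 3.79 and 3.69 CPM in the parental line (log2 fold change 2.23, SE 0.19, adjusted p = 5.93e-05). Herpud1, a factor of protein degradation at the endoplasmic reticulum, was higher by 0.57 (SE 0.07, adjusted p = 0.000501). The other 3 with the element were Atf3, Aars and Fgf21. Atf3 lost its call without F5 at passage 8 (adjusted p = 0.0643), and Fgf21 lost it without the same library (adjusted p = 0.0678) or the parental library of passage 8 (adjusted p = 0.0581). A match gives letters in a window and does not show binding.

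Genes of glycolysis and targets of HIF, the oxygen-regulated transcription factor, were mostly higher in F5. Of 43 members, 26 were higher (60.5%, beside 6.88% of all genes) and 1 lower. The median log2 fold change against the parental line was 0.59 in F5, 0.51 in G5 and 0.41 in H7. Bnip3, a mitophagy receptor, had 83.9, 80.4 and 70.6 CPM in F5 and 37.5, 35.5 and 29.6 CPM in the parental line (log2 fold change 1.20, SE 0.10, adjusted p = 5.93e-05). Egln3, an oxygen-sensing hydroxylase, had 15.1, 14.7 and 13.4 CPM in F5 and 5.01, 4.22 and 5.10 CPM in the parental line (log2 fold change 1.59, SE 0.16, adjusted p = 0.000179). The groups did not overlap for either gene. The glycolytic enzyme Tpi1 rose by 0.66 (SE 0.07, adjusted p = 0.000287), and the collagen lysyl hydroxylase Plod2 by 1.05 (SE 0.14, adjusted p = 0.000793). The lower member was Pfkfb3, a regulator of glycolytic flux, with -1.71 (SE 0.31, adjusted p = 0.00491), and -1.12 without the parental library of passage 7. The higher count was 14 without F5 at passage 7 and 17 without F5 at passage 8. Against H7, 11 of the 43 members were higher and 4 lower in F5, where 9.45% and 8.49% of all genes were.

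Of 35 p53 targets tested, 14 were higher (40%, beside 6.88% of all genes), and none was called lower by edgeR or by DESeq2. An unadjusted p under 0.05, in either direction, was passed by 24. The median over the 35 against the parental line was 0.54 in F5, 0.50 in G5 and 0.45 in H7. Cdkn1a, the cell cycle inhibitor p21, had 151, 118 and 144 CPM in F5 and 56.8, 26.0 and 52.1 CPM in the parental line (log2 fold change 1.62, SE 0.25, adjusted p = 0.0019). Gadd45a, a stress-induced growth regulator, had 14, 18 and 11.1 CPM in F5 and 3.22, 1.93 and 3.03 CPM in the parental line (log2 fold change 2.40, SE 0.25, adjusted p = 0.00021). Plk2 rose by 0.96 (SE 0.08, adjusted p = 4.99e-05) and Psrc1, a spindle protein, by 1.27 (SE 0.14, adjusted p = 0.000287). None of the 51 genes of DNA replication and none of the 49 genes of mitosis was called by edgeR in F5. At an unadjusted p under 0.05 the counts were 1 and 3, and DESeq2 called 0 and 1. Their median log2 fold changes were 0.00 and -0.06. Ccnd2, a D-type cyclin, had 551, 592 and 499 CPM in F5 and 328, 318 and 295 CPM in the parental line (log2 fold change 0.80, SE 0.08, adjusted p = 0.000235).

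Genes of ribosomal proteins were slightly but widely higher, with 40 of 79 members called higher (50.6%, beside 6.88% of all genes). None was called lower by edgeR or DESeq2, and 52 passed an unadjusted p under 0.05. The median log2 fold change against the parental line was 0.28 in F5, 0.19 in G5 and 0.10 in H7. Rps27 had 215, 220 and 223 CPM in F5 and 170, 158 and 172 CPM in the parental line (log2 fold change 0.39, SE 0.06, adjusted p = 0.00205). Rpl32 had 451, 459 and 449 CPM in F5 and 364, 303 and 346 CPM in the parental line (log2 fold change 0.42, SE 0.07, adjusted p = 0.00321). The groups did not overlap for either. The count fell to 21 without F5 at passage 8 and to 26 without F5 at passage 9. Reads of these genes can be shared with their many pseudogenes, so single levels carry that uncertainty.

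**Figure D2:**
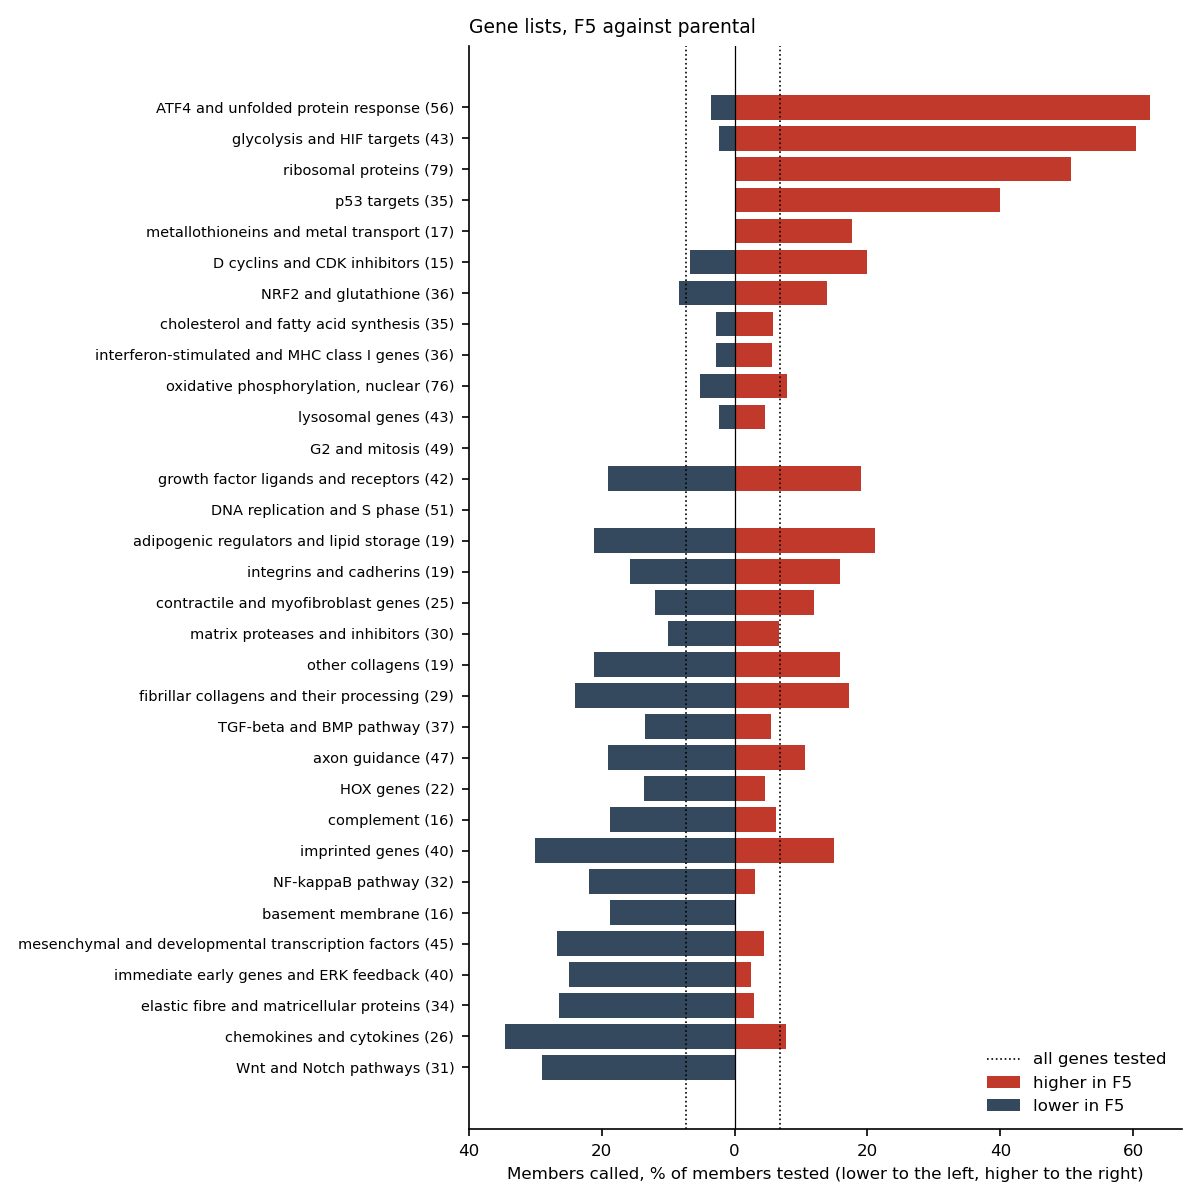
Share of the tested members of each gene list called higher (right) or lower (left) in F5 than in the parental line, as a percentage, with the number tested in parentheses for lists of 15 or more. Dotted lines give the shares over all genes tested, 6.88% higher and 7.37% lower. The ATF4, glycolysis, ribosomal protein and p53 lists reach 62.5%, 60.5%, 50.6% and 40% higher, and the chemokine list 34.6% lower.

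Matrix genes moved in both directions. Of 29 fibrillar collagens and their processing enzymes, 7 were lower (24.1%) and 5 higher (17.2%), beside 7.37% and 6.88% of all genes. Col11a1, a chain of the minor fibrillar collagen XI, had 3.22, 4.68 and 4.01 CPM in F5 and 14.4, 18.2 and 17.0 CPM in the parental line (log2 fold change -2.06, SE 0.15, adjusted p = 2.87e-05). Col27a1 fell by 1.70 (SE 0.18, adjusted p = 0.000235). The 5 higher members were all enzymes, namely the prolyl hydroxylase subunits P4ha1 and P4ha2, the lysyl hydroxylase Plod2, the lysyl oxidase Loxl4 and the crosslinking transglutaminase Tgm2. Tgm2 had 26.3, 32.7 and 28.2 CPM in F5 and 5.28, 10.1 and 5.84 CPM in the parental line (log2 fold change 2.03, SE 0.21, adjusted p = 0.000193). P4ha1, P4ha2 and Plod2 also belong to the HIF list. Without F5 at passage 8, and likewise at passage 9, 4 were lower.

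Of 34 elastic fibre and matricellular genes, 9 were lower (26.5%) and 1 higher (2.94%), beside 7.37% and 6.88% of all genes. The median log2 fold change was -0.44. Has2, the main hyaluronan synthase, had 23.7, 16.3 and 21.5 CPM in F5 and 60.2, 66.7 and 60.6 CPM in the parental line (log2 fold change -1.61, SE 0.24, adjusted p = 0.00143). The single higher member, Fbln2, lost its call without any 1 of 10 of the 12 libraries, with adjusted p of 0.159 without F5 at passage 7 and 0.104 without F5 at passage 9. Lum and Dcn, proteoglycans that bind collagen fibrils, were the 2 called lower (16.7%) of 12 small leucine-rich proteoglycans tested. The median log2 fold change over the 12 was -1.78, and DESeq2 called 6 lower. An unadjusted p under 0.05, in either direction, was passed by 8. Lum had 2.95, 4.83 and 3.97 CPM in F5 and 34.5, 83.1 and 36.9 CPM in the parental line (log2 fold change -3.71, SE 0.43, adjusted p = 0.000418). Dcn had 10.4, 21.3 and 14.7 CPM in F5 and 112, 348 and 101 CPM in the parental line, and its log2 fold change of -3.59 was -2.78 without the parental library of passage 7. Without the parental library of passage 6, 5 proteoglycans were lower instead of 2, and without that of passage 7, 2 were higher instead of 1. The related Podnl1 had 50.6, 47.7 and 43.9 CPM in F5 and 22.5, 23.8 and 26.3 CPM in the parental line (log2 fold change 0.97, SE 0.11, adjusted p = 0.000304). Npnt, a basement membrane ligand of integrins, had 15.5, 13.5 and 12.6 CPM in F5 and 61.3, 78 and 50 CPM in the parental line (log2 fold change -2.19, SE 0.17, adjusted p = 3.36e-05). Acta2, the smooth muscle actin of myofibroblasts, had 564, 589 and 584 CPM in F5 and 331, 281 and 365 CPM in the parental line, a rise of 0.83 (SE 0.11, adjusted p = 0.000954). Its list did not move in 1 direction. Of 25 contractile and myofibroblast genes tested, 3 were higher and 3 lower, with a median log2 fold change of 0.04. The higher members were Acta1, Acta2 and Actg2, and the lower members were Cnn1, Myh10 and Tpm4. Without F5 at passage 7, 1 was lower.

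Signalling and regulatory lists differed in their direction. Over all genes tested, 6.88% were higher and 7.37% lower. Of 42 growth factor ligands and receptors, 8 were higher and 8 lower, with a median log2 fold change of -0.09, and 5 were lower without F5 at passage 7 or 9. Of 37 genes of the TGF-beta and BMP pathways, 2 were higher (5.41%) and 5 lower (13.5%), with a median of -0.05. There the higher count was 0 or 1 without any 1 of 11 of the 12 libraries, and the lower count 3, 3 and 2 without F5 at passage 7, 8 or 9. Of 31 genes of the Wnt and Notch pathways, 9 were lower (29.0%) and none was called higher by edgeR or DESeq2. At an unadjusted p under 0.05 there were 13, and the median log2 fold change was -0.32. Notch1, a receptor of the Notch pathway, had 17.3, 19 and 19.8 CPM in F5 and 45.5, 68.0 and 56.6 CPM in the parental line (log2 fold change -1.60, SE 0.13, adjusted p = 4.88e-05). Fzd1, a Wnt receptor, fell by 1.89 (SE 0.28, adjusted p = 0.00173) and Fzd6 by 1.47 (SE 0.17, adjusted p = 0.000445). There were 5 lower without F5 at passage 7, 8 or 9, and 5 without the parental library of passage 7, where 1 member was called higher.

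Of 45 mesenchymal and developmental transcription factors, 12 were lower (26.7%) and 2 higher (4.44%), beside 7.37% and 6.88% of all genes. The higher count was 1 without F5 at passage 7, 8 or 9 or the parental library of passage 7. Nr2f1, an orphan nuclear receptor, had 44.7, 50.2 and 48.2 CPM in F5 and 97.2, 89.3 and 105 CPM in the parental line (log2 fold change -1.03, SE 0.11, adjusted p = 0.00021). Sox5 had 27.9, 26.7 and 32.4 CPM in F5 and 62.2, 66.8 and 75.5 CPM in the parental line (log2 fold change -1.23, SE 0.14, adjusted p = 0.00043). Of 40 immediate early genes and feedback inhibitors of ERK, 10 were lower and 1 higher. The single higher call was lost without F5 at passage 8, and 3 were higher without the parental library of passage 6. Arc, an immediate early gene best known from neurons, had 5.63, 4.46 and 4.71 CPM in F5 and 13.8, 13.7 and 12.5 CPM in the parental line (log2 fold change -1.43, SE 0.14, adjusted p = 0.00015). Lower calls numbered 5 without F5 at passage 9 and 6 without the parental library of passage 8. Of 26 chemokine, cytokine and receptor genes, 9 were lower (34.6%) and 2 higher (7.69%). There were 3, 3 and 4 lower without F5 at passage 7, 8 or 9, and 4 higher without the parental library of passage 6. Il1r1, the signalling receptor of interleukin 1, had 72.6, 85.5 and 69.8 CPM in F5 and 114, 185 and 121 CPM in the parental line (log2 fold change -0.88, SE 0.18, adjusted p = 0.00875). Mif, a cytokine that is made constitutively, had 321, 268 and 277 CPM in F5 and 170, 83.0 and 156 CPM in the parental line (log2 fold change 1.08, SE 0.22, adjusted p = 0.00742). Egfr, the epidermal growth factor receptor, had 0.728, 1.41 and 0.771 CPM in F5 and 9.97, 57.7 and 11.8 CPM in the parental line, a log2 fold change of -4.75 that was -3.46 without the parental library of passage 7. Ephx1, an epoxide hydrolase of the NRF2 list, had 109, 116 and 106 CPM in F5 and 33.0, 36.0 and 29.6 CPM in the parental line (log2 fold change 1.74, SE 0.08, adjusted p = 3.35e-06). In that list 5 of 36 tested members were higher (13.9%) and 3 lower (8.33%), with a median of 0.04. Leaving out 1 library gave 3 to 5 higher and 0 to 4 lower.

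Both lines expressed all 12 fibroblast markers, which summed to 10413 to 11301 TPM, a level corrected for transcript length, in F5 libraries and 11080 to 12447 TPM in parental libraries. Of these, Col1a1, Col3a1, Dcn and Prrx1 were lower in F5 (33.3%). Over all genes tested, 7.37% were lower and 6.88% higher, and the other marker lists had few tested members. Prrx1 lost its call without F5 at passage 7 (adjusted p = 0.0554). Markers of endothelial cells summed to 1.42 to 2.37 TPM in F5 and 7.42 to 10.2 TPM in parental libraries, with 2 of 4 tested members lower in F5, or 1 without F5 at passage 7 or 9 or the parental library of passage 7 or 8, and Kdr, Tie1, Cldn5 and Sox17 at 0 in both lines. Immune markers summed to 10.0 to 11.2 TPM in F5 and 7.65 to 9.71 TPM in parental libraries, with Cd3e, Adgre1, Cd52 and Tyrobp at 0. Of 5 tested, 1 was called higher, Cd74, the invariant chain of MHC class II, with 0.268, 0.220 and 0.386 CPM in F5 and 0, 0.0789 and 0 CPM in the parental line (adjusted p = 0.0281). Its call was lost without F5 at passage 7 or 9 or the parental library of passage 6 or 8. Epithelial markers summed to 0.806 to 1.12 TPM in F5 and 0.803 to 1.34 TPM in parental libraries, and the muscle regulators Myod1, Myog, Myf5 and Myf6 were at 0. Of 4 muscle markers tested, 1 was called higher, the skeletal actin Acta1, with 0.613, 0.408 and 0.386 CPM in F5 and 0.179, 0.0395 and 0.220 CPM in the parental line (log2 fold change 1.67, SE 0.48, adjusted p = 0.0392). Its call was lost without any 1 of 9 of the 12 libraries, each F5 library among them. Of 6 neural markers tested, Snap25 was lower, and the 1 adipocyte marker tested, Retn, was lower (adjusted p = 0.0414) but not called without any 1 of 9 libraries. The part of other cell types in the results was not tested.

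By genomic position, chromosome 7 stood lowest among the autosomes in F5. Of its 1127 tested genes, 236 (20.9%) were lower and 54 (4.79%) higher in F5 than in the parental line, and their median log2 fold change was -0.20. The other autosomes had medians between -0.08 and 0.07, with 6.27% of their 13054 genes lower. Each F5 library showed the same shift: the median over chromosome 7 genes, relative to the parental libraries, was -0.17 at each of passages 7, 8 and 9 in F5, against 0.00, 0.03 and -0.01 in the parental libraries of passages 6, 7 and 8. With the order block 367 genes of chromosome 7 were lower and 97 higher. Leaving out F5 at passage 7 or 9 left 134 or 138 lower genes, and 29 were higher without F5 at passage 8.

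**Figure D3:**
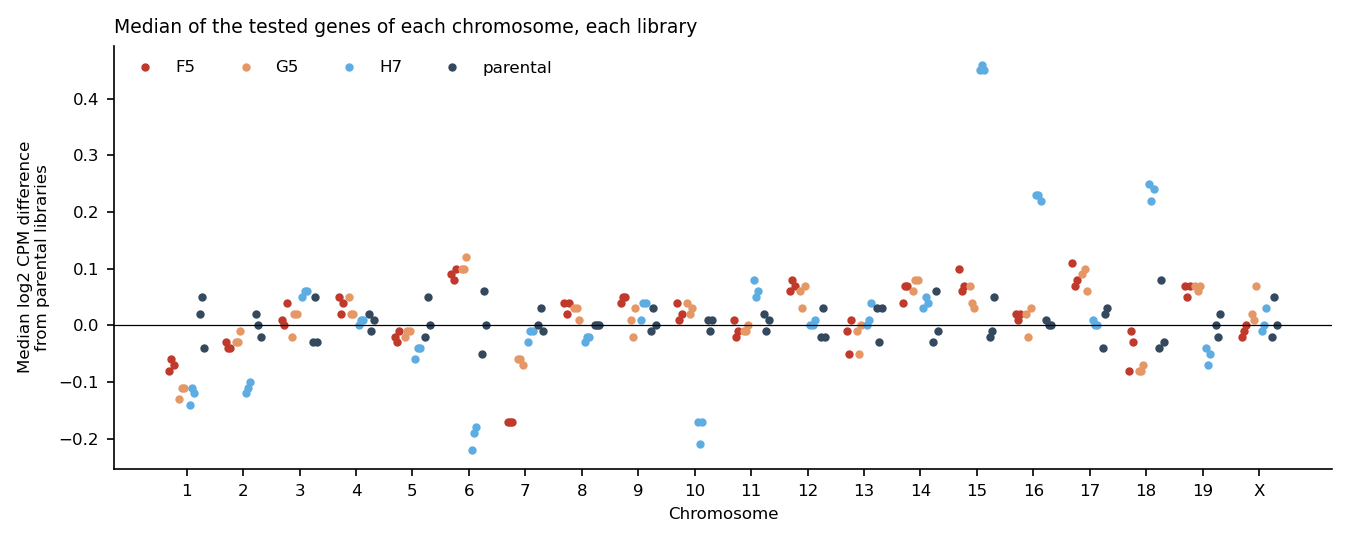
Median log2 CPM difference from the parental libraries over the tested genes of each chromosome, with 1 point per library of F5, G5, H7 and the parental line. A parental library is set against the other 2 parental libraries. The F5 points of chromosome 7 lie at -0.17, below the G5, H7 and parental points of that chromosome.

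In windows of 10 Mb the shift lay in the centromeric part. The first 9 windows, up to 90 Mb, had medians between -0.39 and -0.22, and the remaining 6 had medians between -0.06 and 0.08. Of 228 windows with at least 20 tested genes across the genome, 13 had a median of -0.2 or lower, and 9 of these were the first 9 of chromosome 7. In windows of 5 Mb the values stayed negative up to 95 Mb, with -0.28 over 24 genes at 90 to 95 Mb and 0.12 over 39 genes at 95 to 100 Mb. The weakest value within the stretch was -0.05, over 27 genes at 35 to 40 Mb. A pair of windows with medians of this size lies at the end of chromosome 11, at -0.29 and -0.23.

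**Figure D4:**
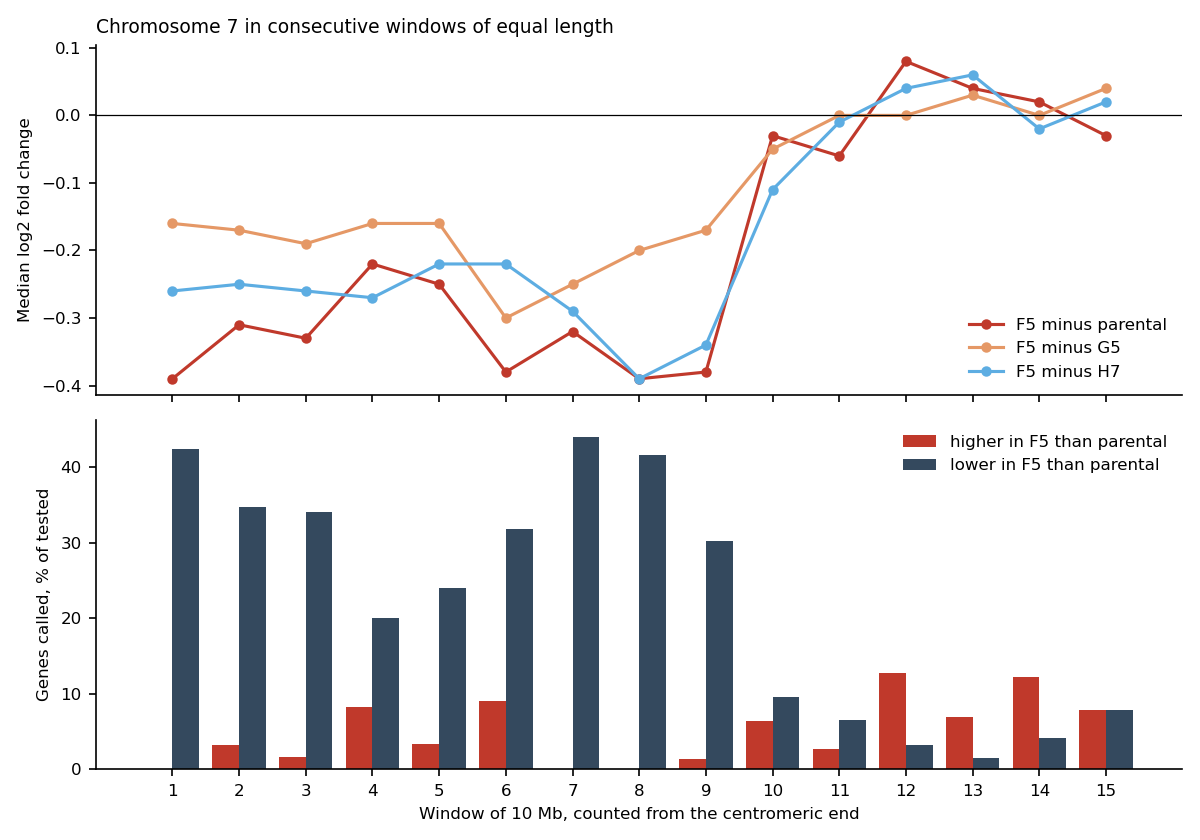
Top, median log2 fold change of F5 over the parental line, G5 and H7 in 15 consecutive windows of 10 Mb on chromosome 7, numbered from the centromeric end. Bottom, percentage of tested genes in each window called higher or lower in F5 than in the parental line. All 3 medians are negative in windows 1 to 9, and the share called lower is between 20% and 44.1% there and at most 9.52% in windows 10 to 15.

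With the boundary set at 90 Mb after these values were seen, 213 of the 667 tested genes in the first part (31.9%) were lower in F5 and 19 (2.85%) higher, and 85.3% had a log2 fold change below 0. The median of -0.32 corresponds to 0.799 of the parental level, with quartiles of -0.50 and -0.15. Of the 213 lower genes, 189 changed by less than 1 on the log2 scale, so that the region held many small falls. Genes with a mean of at least 10 CPM gave nearly the same median, -0.31 over 355 genes. By library the medians were -0.30, -0.31 and -0.30 in F5, between -0.14 and -0.11 in G5, between -0.05 and -0.03 in H7 and between -0.01 and 0.01 in the parental line. Beyond 90 Mb, 23 of 460 genes (5%) were lower and 35 (7.61%) higher, with a median of 0.01. The number of copies of the region was not measured here.

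The ribosomal protein genes gave an internal view of this stretch. The 9 tested members in the first 90 Mb had log2 fold changes between -0.11 and 0.04. The 5 members on chromosome 7 beyond 90 Mb lay between 0.14 and 0.34, with 3 called higher. The 65 on other chromosomes lay between -0.53 and 0.70, with a median of 0.30 and 37 called higher. Against G5, the 9 proximal genes lay between -0.17 and -0.07, while the distal 5 lay between 0.01 and 0.10. The 65 on other chromosomes had a median of 0.07 against G5 and lay between -0.12 and 0.57, a range that overlapped the proximal one. Summed, the proximal 9 had 3806, 3905 and 3842 CPM in F5 and 4143, 3628 and 3925 CPM in the parental line. Those on other chromosomes had 27601, 28690 and 28095 CPM in F5 and 24679, 21587 and 23223 CPM in the parental line. The first sums overlapped between the lines and the second did not.

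Some genes of the proximal stretch fell by more than its median. Zfp36, which encodes the mRNA-destabilising protein tristetraprolin (28376784 to 28380253), had 14.6, 16.1 and 16.4 CPM in F5 and 36.6, 34.7 and 30.8 CPM in the parental line (log2 fold change -1.11, SE 0.08, adjusted p = 2.87e-05). Nr2f2, a nuclear receptor of mesenchyme and veins (70351944 to 70366735), had 302, 341 and 340 CPM in F5 and 530, 499 and 577 CPM in the parental line (log2 fold change -0.71, SE 0.07, adjusted p = 0.00021). Relb, a subunit of NF-kappaB, had 7.62, 8.19 and 8.45 CPM in F5 and 12.1, 17.2 and 12.1 CPM in the parental line (log2 fold change -0.77, SE 0.15, adjusted p = 0.006). These 3 genes are members of the immediate early, transcription factor and NF-kappaB lists, so position and list overlap in them. Anpep, an aminopeptidase of the cell surface, fell by 4.01 (SE 0.58, adjusted p = 0.00141) and by 3.09 without the parental library of passage 7.

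Beyond 90 Mb, the largest fall was that of B4galnt4, a glycosyltransferase (141061104 to 141072400), with 0 counts in all 3 F5 libraries and 5.50, 6.32 and 6.11 CPM in the parental line. Against a limit of 3 counts over the F5 libraries, or 0.0358 CPM, it was at least 168-fold lower in F5. Igf2, a fetal growth factor (142650766 to 142666816), had 1.19, 6.87 and 2.01 CPM in F5 and 126, 796 and 100 CPM in the parental line. Its log2 fold change of -6.62 (SE 1.1, adjusted p = 0.00277) was -5.03 without the parental library of passage 7 and -7.73 without F5 at passage 8. Htra1, a secreted serine protease, had 6.09, 6.75 and 4.20 CPM in F5 and 0.760, 1.11 and 1.36 CPM in the parental line (log2 fold change 2.40, SE 0.27, adjusted p = 0.000381). Nupr1, a stress-induced chromatin protein of the ATF4 list, had 10.6, 9.66 and 10.2 CPM in F5 and 5.23, 2.53 and 3.6 CPM in the parental line (log2 fold change 1.43, SE 0.23, adjusted p = 0.00236).

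Among imprinted genes, expressed from 1 parental copy in some or all tissues, 12 of 40 tested were lower and 6 higher in F5, and 15 of the 40 lie on chromosome 7. The shares over all genes tested were 7.37% lower and 6.88% higher, and over the tested genes of chromosome 7 they were 20.9% and 4.79%. In the cluster at the proximal stretch, Snrpn had 4.18, 4.55 and 3.74 CPM in F5 and 2.59, 2.25 and 2.37 CPM in the parental line (log2 fold change 0.79, SE 0.16, adjusted p = 0.0115), while its neighbours Ube3a and Atp10a fell by 0.38 and 0.40. Ndn, in the same cluster, had a log2 fold change of -0.06 (adjusted p = 0.758). In the distal cluster, the non-coding RNA Kcnq1ot1 had 853, 896 and 858 CPM in F5 and 701, 727 and 727 CPM in the parental line (log2 fold change 0.27, SE 0.05, adjusted p = 0.00693), and Cd81 rose by 0.33 (SE 0.07, adjusted p = 0.00758). Igf2, given above, and H19 also lie at the distal end and fell. H19, a non-coding RNA next to Igf2, had 0.460, 3.80 and 0.926 CPM in F5 and 25.5, 94.8 and 9.45 CPM in the parental line. Its log2 fold change of -4.59 (SE 0.91, adjusted p = 0.00728) was -5.96 without F5 at passage 8 and -3.29 without the parental library of passage 7.

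F5 was also set directly against the other knockout clones. Against G5, 28 genes were higher (0.190%) and 10 lower (0.0680%), and against H7, 1389 were higher (9.45%) and 1249 lower (8.49%). The fit over all 12 libraries gave these counts, with its spread shared with the parental libraries. A fit of the clones alone called 30 higher and 15 lower against G5, and 1734 higher and 1692 lower against H7. Because libraries of the same passage varied together among the clones, a fit of the clones with passage as a block was added after the data were seen. It called 232 higher (1.60%) and 297 lower (2.05%) against G5, and 3031 higher (20.9%) and 3101 lower (21.4%) against H7, while the block fitted over all 12 libraries called 13 higher and 8 lower against G5. Against G5, 3 of the 10 lower genes lay in the first 90 Mb of chromosome 7, and in the blocked fit of the clones 120 of the 297 (40.4%) did. In that fit 18.3% of the tested genes of the stretch were lower in F5 than in G5, beside 2.05% of all genes tested, and 1.55% of the genes beyond 90 Mb. Against H7, 172 of the 667 genes of the stretch (25.8%) were lower in F5 and 18 were higher. The count of higher genes against G5 was 18 without F5 at passage 8 and 17, 18 and 14 without G5 at passage 7, 8 or 9. The lower count was 6 without F5 at passage 9 and 20 without the parental library of passage 7. Against H7, the lower count was 767, 778 and 823 without F5 at passage 7, F5 at passage 9 or H7 at passage 9.

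In edgeR's fit over all libraries, 3 genes were lower in F5 than in each of the other 3 lines, and these 3 lie in the first 90 Mb of chromosome 7. The number depended on the model, with 24 such genes in DESeq2 and 23 with a block for the order of passages. Eml2, a microtubule-associated protein (19176421 to 19206482, plus strand), had 0.460, 1.22 and 0.579 CPM in F5, against 3.96, 8.07 and 3.63 CPM in G5, 6.89, 8.21 and 5.35 CPM in H7 and 5.46, 5.21 and 4.44 CPM in the parental line. The log2 differences were -2.75 from G5 (adjusted p = 0.0125), -3.14 from H7 (adjusted p = 0.000351) and -2.70 from the parental line (adjusted p = 0.00141). Grik5, a kainate receptor subunit (25009849 to 25072346, minus strand), had 3.56, 4.90 and 4.32 CPM in F5, against 12.4, 15 and 12 CPM in G5, 14.3, 17.8 and 15.5 CPM in H7 and 14.0, 20.3 and 15.6 CPM in the parental line. The log2 differences were -1.61 from G5 (adjusted p = 0.00183), -1.89 from H7 (adjusted p = 3.81e-05) and -1.96 from the parental line (adjusted p = 7.02e-05). Ube3a, a ubiquitin ligase imprinted in neurons (59228750 to 59311536, plus strand), had 227, 224 and 216 CPM in F5, against 283, 288 and 290 CPM in G5, 305, 308 and 296 CPM in H7 and 294, 286 and 287 CPM in the parental line. Its log2 differences were smaller, at -0.37, -0.45 and -0.38, and the F5 libraries lay below all others. The number of such genes was 1 without F5 at passage 9 and 8 without the parental library of passage 7.

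**Figure D5:**
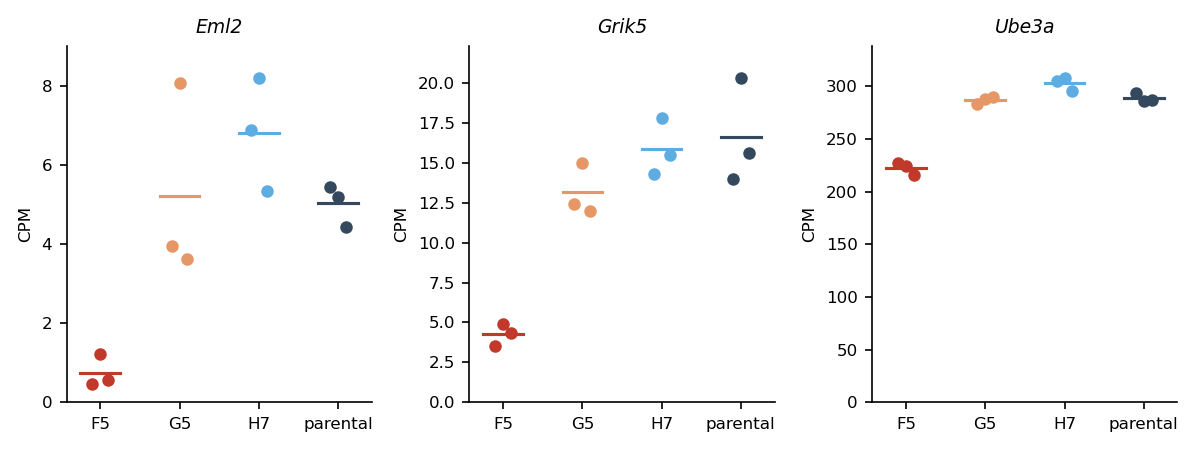
CPM of Eml2, Grik5 and Ube3a in each library of F5, G5, H7 and the parental line, with 1 point per library and a bar at the mean of each group, on axes from 0. The F5 libraries lie below every other library in each panel, at most at 1.22, 4.90 and 227 CPM.

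A single gene, Akr1c12, an aldo-keto reductase named here after its values were seen, was higher in F5 than in each other line, with a mean of 0.770 CPM in F5. No gene was so called without F5 at passage 8 or 9, G5 at passage 8 or 9, H7 at passage 8 or the parental library of passage 8, and 3 were without the parental library of passage 7. Other genes had a separate level in F5 between those of the other lines. Tgfbi, a matrix protein induced by TGF-beta, had 4.10, 6.93 and 7.02 CPM in F5, against 0.0707, 0.408 and 0.399 CPM in G5, 37.0, 54.4 and 59.5 CPM in H7 and 33.1, 65.0 and 34.4 CPM in the parental line. Hoxb9, a homeobox gene of trunk position, had 2.34, 2.26 and 2.55 CPM in F5, against 0.495, 0.544 and 0.239 CPM in G5, 14.3, 11.9 and 12.8 CPM in H7 and 0.537, 0.355 and 0.220 CPM in the parental line. Hoxc8 had 0.766, 0.973 and 1.08 CPM in F5, against 0.460, 0.363 and 0.319 CPM in G5, 9.75, 11.5 and 11.6 CPM in H7 and 3.40, 3.28 and 2.90 CPM in the parental line. No library of F5 overlapped one of another line for these 3 genes. In the list of cholesterol and fatty acid synthesis, 2 of 35 members were higher (5.71%) and 1 lower (2.86%) against the parental line. The shares over all genes were 6.88% and 7.37%. Against H7, 21 of the 35 were higher, with a median of 0.38, beside 9.45% of all genes. The 2 higher calls against the parental line were lost without F5 at passage 7.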

How the data were processed

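Estimated counts per Ensembl gene, not normalised, and TPM for the same genes were deposited by the authors as 2 tables. The build is GRCm38 per the submitters' processing notes. No source used here names the aligner or the counter, or says if counting used strand, so overlapping, antisense and near-identical genes are uncertain. Of the deposited counts, those not whole were rounded. Symbols and coordinates, counted from 1, are from GENCODE release M21 for GRCm38. Genes were filtered with edgeR's filterByExpr, scaled by TMM and fitted over all 12 libraries with group as the term (edgeR 4.0.16, R 4.3.3, 8 residual degrees of freedom, biological coefficient of variation 15.5%). P-values of the quasi-likelihood F-test were adjusted by the Benjamini-Hochberg method over all 14704 genes tested, and a call is an adjusted p under 0.05. DESeq2 1.42.0 and limma 3.58.1, on log2(TPM + 1) and log2(TPM + 0.1), were alternatives. The test was also run on simulated counts drawn independently for each library, so that run does not cover variation shared between libraries. The limit for 0 counts is 3 counts over the summed libraries of a group and covers counting error only.

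Named genes were Aebp1, the 12 highest and 12 lowest fold changes among called genes averaging 1 CPM or more and with no overlap, the 6 largest changes in CPM each way, the genes apart from all 3 other lines, up to 4 members of each list by adjusted p, the 6 most changed each way on chromosome 7, and its imprinted genes. Predicted-gene names were left out, and a few named genes are not reported here. Other genes named in the text were chosen after their values were seen, by motif, position or role. The choice of F5, of chromosome 7 and of the gene lists was made with earlier results of these data known. Deviations from group means of the same passage correlated between F5 and G5 (0.879, 0.865 and 0.617) and between F5 and H7 (0.514, 0.656 and 0.375). The passage block of the clones rests on these values, since the labels give no pairing. Between F5 and parental libraries of the same passage the correlations were -0.657 and -0.573. Deviations within a group are tied to one another, so these correlations are not independent.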

Additional observations from a re-analysis of the deposited data

Results flagged for a closer look

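These genes had differences of F5 from both G5 and H7 that passed their own tests, so that the effect against the parental line differed between clones. The list is not complete: Akr1c12 also differed from both, and many genes, Mbnl3 and Hecw1 among them, differed from H7. Eml2 differed by -2.75 from G5 and by -3.14 from H7 on the log2 scale, Grik5 by -1.61 and -1.89, and Ube3a by -0.37 and -0.45, all lower in F5. Tgfbi was higher in F5 than in G5 by 4.41 and lower than in H7 by a log2 difference of -3.06. Hoxc8 differed from G5 by 1.28 and from H7 by -3.54, and Hoxb9 by 2.47 and -2.45.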

How the results depend on the processing

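Against the parental line, the higher and lower counts of F5 were 401 and 366 in a fit of the F5 and parental libraries alone, 260 and 315 with a fold threshold of 1 on the log2 scale, and 2024 and 2202 with a block for the order of passages, which the labels do not give. The replicate block by passage number called 899 higher and 983 lower. Same-order libraries of F5 and the parental line correlated at 0.645, 0.715 and 0.395, a hint from the data and not the design. Leaving out 1 library gave 635 to 1045 higher and 547 to 1167 lower. The cause of these differences was not tested.

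Against G5, the higher and lower counts were 58 and 44 with DESeq2, 44 and 38 with the order block and 232 and 297 with the clones alone and the passage block. The higher count was 13 with the passage block over all libraries, 13 with limma on log2(TPM + 1) and 17 without the second passage of every line. Leaving out 1 library gave 14 to 37 higher and 6 to 20 lower. Against H7, they were 2300 and 2303 with the order block, 3031 and 3101 with the clones alone and the passage block, and 404 and 306 with the fold threshold. The lower count was 831 with each chromosome centred. Leaving out 1 library gave 927 to 1852 higher and 767 to 1783 lower. Genes apart from all 3 lines numbered 2 higher and 24 lower with DESeq2 and 2 and 23 with the order block. The higher count was 0 with centred chromosomes, a mean of at least 1 CPM, the passage block over all libraries or no second passages. Leaving out 1 library gave 0 to 3 higher and 1 to 8 lower.

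On chromosome 7, the higher and lower counts were 19 and 83 in the fit of 6 libraries, 97 and 367 with the order block, 119 and 78 with each chromosome centred and 17 and 32 with the fold threshold. The higher count was 34 without second passages. Leaving out 1 library gave 29 to 55 higher and 134 to 241 lower. The median was -0.20 with DESeq2 and without second passages, -0.21 with scaling that left out chromosome 7, -0.19 with RLE scaling, the fit of 6 libraries, either block or a mean of at least 1 CPM, -0.17 with limma on log2(TPM + 0.1) and over genes of at least 10 CPM, -0.15 with no filter, -0.14 with limma on log2(TPM + 1), -0.12 for summed counts, and 0.00 with each chromosome centred, by construction. Leaving out 1 library gave -0.21 to -0.18. Of the named genes that were called, none changed direction under the alternatives tried. Among those not called, the sign turned under some alternatives for Ndn (-0.11 to 0.13), Nap1l4 (-0.15 to 0.15), Mkrn3 (-0.30 to 0.16), Peg12 (-0.08 to 0.43), Usp29 (-0.54 to 0.06) and Tspan32 (-0.91 to 1.31). At this depth a level under 1 CPM rests on few counts. The fits of the clones alone, the omission of second passages, the windows of 5 Mb and the boundary at 90 Mb were added after seeing the data.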
